A study of Mus musculus with 6 samples.

Results

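The phagocyte NADPH oxidase was followed in retinal RNA through 6 genes, Cybb, Cyba, Ncf1, Ncf4, Rac2 and Hvcn1. These genes were chosen for their function in the oxidase, with earlier results of these data known, and all 6 were found among the 23420 genes of the count table. RNA of whole mouse retinas was sequenced to ask how bright light changes retinal gene expression and how minocycline, an antibiotic with anti-inflammatory action, alters that response. The data set held 3 groups of 2 libraries each, described as biological replicates, and all mice were of the albino strain CD1 by the sample labels. Control retinas came from mice without treatment, and light-exposed retinas came from mice kept under 10000 lux for 1 h and analysed at day 4. Minocycline retinas came from mice exposed to the same light that also received minocycline at 45 mg/kg daily for 4 days by intraperitoneal injection. The methods of the study name the BALB/cJ strain, a brighter light, more injections and another RNA kit than the labels do, and both sources place the analysis at the same day. The labels list no solvent injection for the light-exposed group, so drug and injection cannot be told apart in these libraries. No gene was deleted and no cells were sorted, so every value is from a mixture of all retinal cells. Age is not given in the labels.

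The phagocyte oxidase is an enzyme complex that moves electrons from NADPH across a membrane to oxygen and so makes superoxide. Its membrane part is a flavocytochrome of gp91phox and p22phox, and the cytosolic proteins p47phox and p40phox join it with a Rac GTPase when the cell is activated. A proton channel balances the charge that leaves with the electrons. Neutrophils, monocytes, macrophages and B cells express these genes, and in the undamaged retina microglia, the resident macrophages, are a source. Other retinal cells may also hold some of these transcripts, and their part was not tested.

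The libraries held 15205930 to 22856922 counts. A gene without counts could still reach 3 counts by chance, a limit of 0.131 to 0.214 CPM that covers counting error only. CPM here is the count scaled by the library size after TMM adjustment, so that the level of a gene is comparable between libraries. Control 1 stood apart from the other libraries, with 77778 counts of Xist, which female cells transcribe, and 11 counts of 4 Y-linked genes. In the remaining 5 libraries Xist had 25 to 188 counts, and the Y-linked genes had 6532 to 12858. Control 1 thus carried the pattern of female cells and the others that of male cells, and Cybb lies on the X chromosome, so results are also given without control 1. The 13 microglia and macrophage markers, among them Csf1r, Cx3cr1 and Tyrobp, summed to 59.9 and 64.2 CPM in the controls, and each marker was detected in every library. The 5 rod markers, abundant as the label retina requires, summed to 85620 and 66481 CPM in controls, 49624 and 34982 CPM after light, and 73314 and 78399 CPM with minocycline. They were thus lowest in the light-exposed libraries, where the oxidase genes were highest, and their part in the results was not tested. Markers of cornea and pigment cells summed to 26.6 to 71.1 CPM in the control and light-exposed libraries and to 163 and 304 CPM in the minocycline libraries.

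In the GRCm38 genome the 6 genes lie on 3 autosomes and the X chromosome. Cybb spans positions 9435252 to 9487771 of chromosome X, and Cyba spans 122424776 to 122432930 of chromosome 8, both on the minus strand. Ncf1 (134220053 to 134229625, minus strand) and Hvcn1 (122206804 to 122242297, plus strand) are both on chromosome 5. Ncf4 (78244801 to 78262580, plus strand) and Rac2 (78559167 to 78572783, minus strand) are both on chromosome 15. Of the exon bases of Hvcn1, 44.2% also belong to exons of Tctn1 on the opposite strand, and 11.1% of those of Ncf1 belong to exons of Gtf2ird2. The libraries were stranded but the use of strand in counting is not stated, so reads of these stretches could not be assigned with certainty. Cybb and Ncf4 shared no stretch of 50 bases with another gene, and Rac2 shared 1.29% of its stretches.

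RefSeq promoter windows of build GRCm38.p6 were at hand for 3 of the 6 genes, and these are shown because all 3 genes were highest in the light-exposed libraries. Each window runs from 250 bases before the transcription start to 30 bases after it, in the direction of transcription. Capitals mark the letters of 3 motifs that were searched on both strands. These are the core of PU.1 sites (GAGGAA), the interferon-stimulated response element ISRE (GAAA, any 2 bases, then GAAA again) and the gamma-activated sequence GAS (TTCNNNGAA). The windows lie at chrX:9469295-9469574 for Cybb, inside the annotated span of the gene, at chr8:122432911-122433190 for Cyba and at chr5:134229596-134229875 for Ncf1, all on the minus strand.
Cybb: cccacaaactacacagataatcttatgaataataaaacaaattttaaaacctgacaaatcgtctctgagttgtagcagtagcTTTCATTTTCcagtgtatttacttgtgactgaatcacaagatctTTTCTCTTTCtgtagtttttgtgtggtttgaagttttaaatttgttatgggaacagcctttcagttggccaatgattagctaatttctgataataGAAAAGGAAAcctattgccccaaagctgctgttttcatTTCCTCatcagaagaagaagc
Cyba: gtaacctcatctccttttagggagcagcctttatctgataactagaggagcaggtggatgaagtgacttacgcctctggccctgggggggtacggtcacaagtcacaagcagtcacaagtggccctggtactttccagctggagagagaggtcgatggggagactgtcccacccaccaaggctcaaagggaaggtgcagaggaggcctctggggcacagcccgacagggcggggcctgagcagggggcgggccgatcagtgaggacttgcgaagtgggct
Ncf1: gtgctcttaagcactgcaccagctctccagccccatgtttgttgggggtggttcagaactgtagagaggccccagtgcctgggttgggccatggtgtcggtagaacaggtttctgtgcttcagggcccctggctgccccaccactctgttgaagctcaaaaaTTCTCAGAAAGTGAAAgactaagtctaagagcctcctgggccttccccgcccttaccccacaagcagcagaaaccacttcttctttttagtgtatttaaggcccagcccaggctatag
The Cybb window held 3 matches to ISRE, which begin at positions -168, -124 and -29 from the start. It also held 1 match to the reversed PU.1 core at position 10. The Ncf1 window held an ISRE match at position -82 that overlaps a GAS match at position -88. In the Cyba window none of the 3 motifs was matched. Of 32851 promoter windows in the table, 28.3% held the PU.1 core, 3.44% held ISRE and 8.3% held GAS. For these shares the windows ran to 50 bases after the start, and so were longer than those printed. A match of letters is a description and not evidence of binding.

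The comparison of light-exposed with control retinas asked whether the oxidase genes are part of the response to light damage. Each of the 6 genes was higher in both light-exposed libraries than in both controls, and 5 of 6 passed the test. The median log2 fold change of the 6 genes was 3.98, against 0.00 for all 14349 genes tested. Genes were called at an adjusted p under 0.05 by edgeR's quasi-likelihood test if the log2 fold change was 2 or more in size, and 2.89% of all tested genes were called higher. Groups that did not overlap, with the light-exposed libraries above the controls, were found for 30.1% of all tested genes. In bulk RNA fewer cells of a type and less RNA per cell cannot be told apart. DESeq2 without shrinkage called 6 of 6 genes, and 3.06% of all genes, higher. The 5 calls of edgeR were lost when either control was left out. That setting leaves a single control library, and most calls over the whole table were lost with it. Without control 1 the log2 fold changes still lay between 3.26 for Ncf1 and 5.29 for Cybb, with larger standard errors of 0.79 to 1.58 from a single control library. The plot of log2 CPM by library shows these levels.

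**Figure D1:**
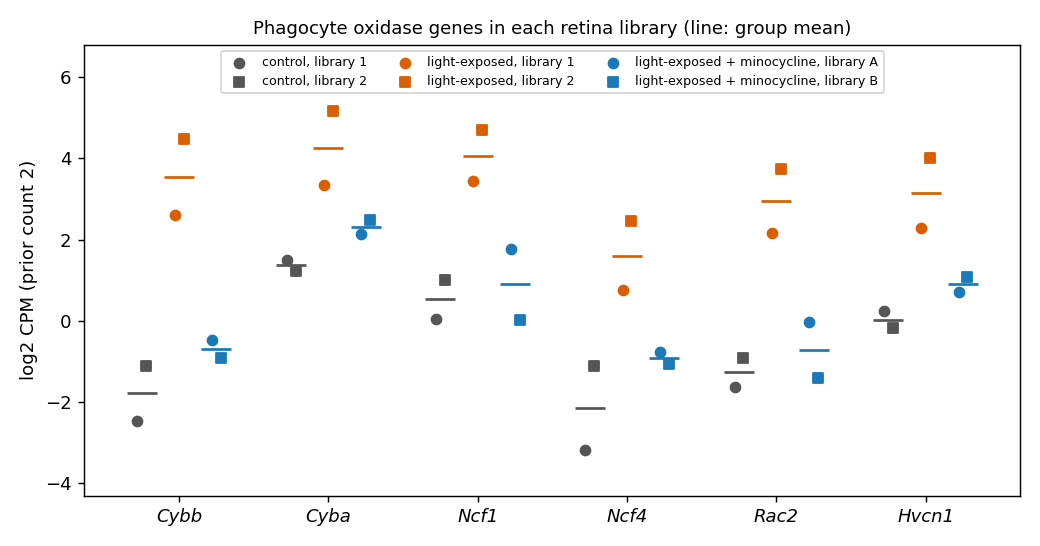
Level of the 6 oxidase genes in each of the 6 libraries, as log2 CPM with a prior count of 2, with a line at each group mean. Both light-exposed libraries lie above all other libraries for every gene, and light-exposed library 2 lies above library 1.

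Cybb encodes gp91phox, the subunit that carries the electrons. It was counted 1 and 5 times in the controls, 103 and 465 times in the light-exposed libraries, and 14 and 8 times in the minocycline libraries. On the CPM scale these levels were 0.0714 and 0.351 in controls, 6 and 22 after light, and 0.612 and 0.423 with minocycline. Cybb was near the limit of detection in both controls, and the light-exposed libraries stood far above the others. It rose by a log2 fold change of 6.01 (SE 1.03) after light, or 64.4-fold, with an adjusted p of 0.0303 by edgeR's quasi-likelihood test. The ratio of summed counts, scaled to library size, was 69.9, with an exact 95% interval of 31.9 to 191 that covers counting error only. Without control 1, the library of the other sex, the log2 fold change of Cybb was 5.29 and its adjusted p was 0.181 by edgeR's quasi-likelihood test.

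Cyba encodes p22phox, the smaller subunit that stabilises gp91phox. It was counted 38 and 32 times in the controls, 173 and 756 times after light, and 99 and 103 times with minocycline. Its CPM levels were 2.71 and 2.25 in controls, 10.1 and 35.8 after light, and 4.33 and 5.45 with minocycline. The light-exposed libraries were again the highest, and they differed from each other by 3.56-fold. The log2 fold change after light was 3.22 (SE 0.75) with an adjusted p of 0.0769 by edgeR's quasi-likelihood test, so Cyba was not called. It was called in 7 of 13 alternative analyses, with adjusted p-values between 6.66e-11 and 0.412 by edgeR and DESeq2.

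Ncf1 encodes p47phox, the organiser that carries the cytosolic subunits to the membrane after phosphorylation. Its levels were 0.928 and 1.9 CPM in controls, 10.7 and 25.8 CPM after light, and 3.32 and 0.899 CPM with minocycline. Both light-exposed libraries lay above the rest, and the minocycline libraries lay on either side of the controls. Ncf1 rose by a log2 fold change of 3.70 (SE 0.55) after light, with an adjusted p of 0.0154 by edgeR's quasi-likelihood test. Ncf4 encodes p40phox, an adaptor that binds a membrane lipid and keeps the complex active on phagosomes. It was counted 0 and 5 times in controls, 27 and 113 times after light, and 11 and 7 times with minocycline. After light these counts were 1.57 and 5.35 CPM, and the 3 groups of Ncf4 did not overlap. It rose by a log2 fold change of 4.26 (SE 1.04), with an adjusted p of 0.0493 by edgeR's quasi-likelihood test, close to the threshold. With 5 counts in all controls, the ratio of summed counts for Ncf4 was 20.7 with an exact 95% interval of 8.65 to 64.6.

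Rac2 encodes the Rac GTPase of blood and immune cells that switches the assembled oxidase on. Its levels were 0.214 and 0.422 CPM in controls, 4.37 and 13.3 CPM after light, and 0.875 and 0.264 CPM with minocycline. The minocycline libraries overlapped with the controls, and both lay below the light-exposed libraries. Rac2 rose by a log2 fold change of 4.77 (SE 0.70) after light, with an adjusted p of 0.0124 by edgeR's quasi-likelihood test, the lowest of the 6 genes. Hvcn1 encodes the voltage-gated proton channel that compensates the charge of the transferred electrons. Its levels were 1.07 and 0.773 CPM in controls, 4.78 and 15.9 CPM after light, and 1.53 and 2.01 CPM with minocycline. The 3 groups of Hvcn1 did not overlap, and controls were lowest. Hvcn1 rose by a log2 fold change of 3.50 (SE 0.65) after light, with an adjusted p of 0.0232 by edgeR's quasi-likelihood test. Tctn1, whose exons overlap those of Hvcn1, was counted 471 and 722 times in controls, 565 and 608 times after light, and 635 and 630 times with minocycline. The part of Tctn1 reads in the Hvcn1 counts was not tested.

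The comparison of minocycline with light-exposed retinas asked whether the drug changes the oxidase genes after light. All 6 genes were lower in both minocycline libraries than in both light-exposed libraries, a pattern of 28.1% of the 14750 genes tested. None passed the test with edgeR (0 of 6), in a comparison in which 0.0339% of all tested genes were called lower. At an unadjusted p under 0.05 all 6 genes were lower, as were 12.1% of all tested genes. DESeq2 without shrinkage of fold changes called all 6 genes lower, and it called 1.9% of all genes lower. The median log2 fold change of the 6 genes was -3.04, against 0.01 for all genes tested. This comparison shares its light-exposed libraries with the one against controls, so the opposite directions are not independent. The plot of fitted changes gives the values with their standard errors.

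**Figure D2:**
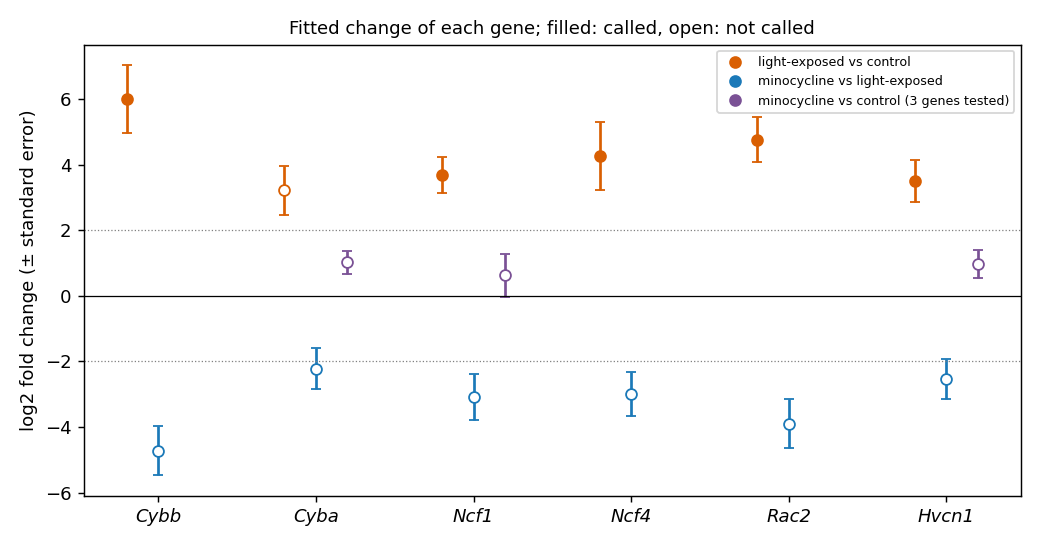
Log2 fold change of each gene in the 3 comparisons of groups, with bars of 1 standard error and dotted lines at the fold threshold of 2 in size. Filled points passed the test, which were 5 genes in light-exposed against control retinas and none in the comparisons with minocycline.

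Cybb had the largest difference between minocycline and light-exposed retinas among the 6 genes, with a log2 fold change of -4.72 (SE 0.75). Its mean level was 14 ± 11.3 CPM (SD, n = 2) after light and 0.518 ± 0.134 CPM (SD, n = 2) with minocycline, and its adjusted p was 0.0698 by edgeR's quasi-likelihood test. Cyba had the smallest difference, with a log2 fold change of -2.22 (SE 0.63) and an adjusted p of 0.142 by the same edgeR test. Its mean level was 23 ± 18.2 CPM (SD, n = 2) after light and 4.89 ± 0.791 CPM (SD, n = 2) with minocycline. The genes of the flavocytochrome thus held both ends of the range, although the difference between them was not tested. For the cytosolic subunits the log2 fold change was -3.09 (SE 0.70) for Ncf1 and -3.00 (SE 0.67) for Ncf4, with edgeR adjusted p-values of 0.101 and 0.0844. Rac2 had a log2 fold change of -3.90 (SE 0.74) with an edgeR adjusted p of 0.0741. Hvcn1 had a log2 fold change of -2.54 (SE 0.61) with an edgeR adjusted p of 0.0958.

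The light-exposed libraries differed from each other for every member. Light-exposed library 2 was above library 1 by 3.67-fold for Cybb, 3.56-fold for Cyba and 2.41-fold for Ncf1. The gap was 3.41-fold for Ncf4, 3.04-fold for Rac2 and 3.33-fold for Hvcn1. The summed microglia and macrophage markers were 366 and 1159 CPM in the same libraries, a gap of 3.16-fold, whereas Rac1, a GTPase of all cells, differed by 1.32-fold. The oxidase genes and the markers were thus both higher in the same light-exposed library. Rod markers were lower there, with 49624 CPM in library 1 and 34982 CPM in library 2. Without light-exposed library 2 the log2 fold changes of the members against controls ran from 2.03 for Cyba to 4.78 for Cybb. Without light-exposed library 1 they ran from 3.86 for Cyba to 6.65 for Cybb. For minocycline against light-exposed retinas they then ran from -5.38 for Cybb to -2.88 for Cyba. A fit with 1 light-exposed library takes its spread from the other group alone, so the gap between the light-exposed libraries is left out. Without library 2 the differences between minocycline and light-exposed retinas ran from -3.52 for Cybb to -1.05 for Cyba on the log2 scale, and 0 of 6 were called. The plot of fits without 1 library gives these values.

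**Figure D3:**
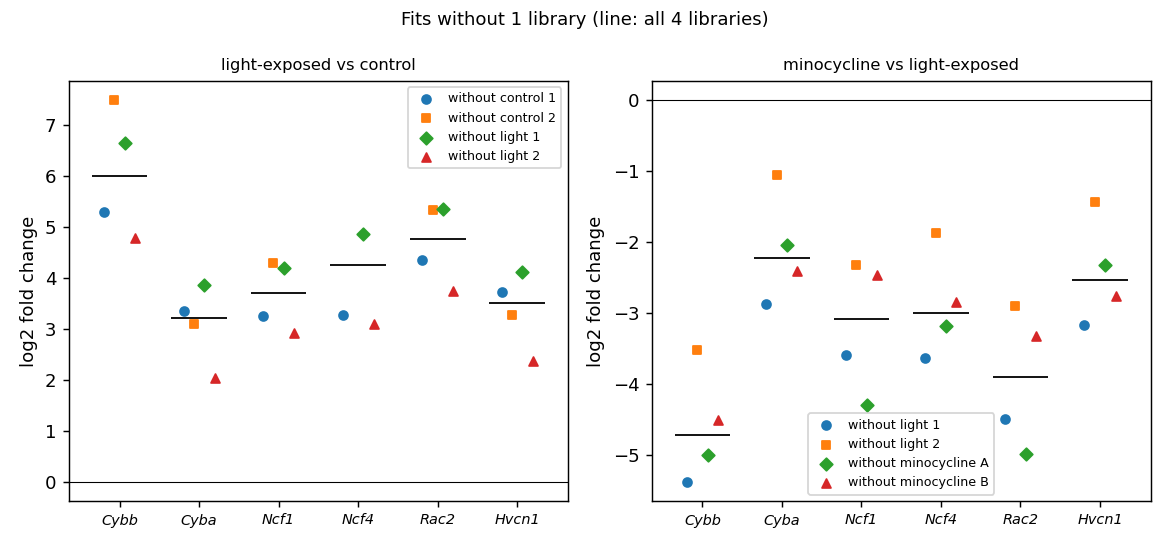
Log2 fold change of each gene when 1 library is left out, for light-exposed against control retinas and for minocycline against light-exposed retinas, with a line at the fit of all 4 libraries. Every value keeps its direction, and leaving out light-exposed library 2 brings the difference from minocycline nearest to 0 for all 6 genes. Ncf4 without control 2 is not drawn, since it then stands against 0 counts.

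The comparison of minocycline with control retinas asked how far the treated retinas differed from unexposed ones. Cybb, Ncf4 and Rac2 were too low in counts to be tested. Of the 3 genes tested none was called by edgeR (0 of 3, with 0.134% of all tested genes called higher), and 2 of 3 had an unadjusted p under 0.05 in the higher direction, as had 5.39% of all tested genes. DESeq2 without shrinkage called 0 of 6 members higher and 0.673% of all genes. The log2 fold change was 1.02 (SE 0.34) for Cyba, 0.63 (SE 0.65) for Ncf1 and 0.98 (SE 0.43) for Hvcn1, with edgeR adjusted p-values of 0.492, 0.784 and 0.71. Cybb, Cyba, Ncf4 and Hvcn1 were higher in both minocycline libraries than in both controls, a pattern of 15.5% of all tested genes, whereas Ncf1 and Rac2 overlapped with the controls. The ratios of summed counts between minocycline and control were 2.48 (exact 95% interval 0.975 to 7.47) for Cybb and 1.95 (1.48 to 2.6) for Cyba. They were 1.57 (1.07 to 2.34) for Ncf1, 2.43 (0.871 to 8.39) for Ncf4, 1.88 (0.848 to 4.57) for Rac2 and 1.9 (1.2 to 3.09) for Hvcn1. These intervals cover counting error only and leave out the spread between libraries. For Cybb, Ncf4 and Rac2 they held the ratio of 1, so a difference was not detectable at this depth. For Ncf1 they did not, but its libraries overlapped with the controls, and its log2 fold change was -0.61 without minocycline A. The minocycline libraries were not alike for all members, since library B was at 0.271 of library A for Ncf1 and at 0.302 for Rac2, at 0.691 for Cybb and at 0.77 for Ncf4, but at 1.26 for Cyba and 1.31 for Hvcn1. The summed microglia and macrophage markers were 107 CPM in library A and 56 CPM in library B, a ratio of 0.521. In the library with fewer marker counts 4 of 6 members were thus lower, and Cyba and Hvcn1 were not.

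Levels of different genes were compared per kilobase of exon. In control retinas Cyba had the highest level with 2.39 ± 0.315 CPM per kb (SD, n = 2), and its libraries lay above those of all other members. Ncf1 followed with 0.386 ± 0.187 and Hvcn1 with 0.259 ± 0.059 CPM per kb, whose libraries overlapped. Rac2 with 0.102, Ncf4 with 0.087 and Cybb with 0.0364 CPM per kb formed the low end, where Ncf4 overlapped with both others and Rac2 did not overlap with Cybb. After light Cyba was again highest with 22.1 ± 17.5 CPM per kb (SD, n = 2), and Ncf1 followed with 4.99 ± 2.92, without overlap. Ncf1 overlapped with Hvcn1. Hvcn1 with 2.9, Rac2 with 2.84, Cybb with 2.41 and Ncf4 with 1.71 CPM per kb had overlapping ranges. Since library 2 was above library 1 for each of them, their order was also read within libraries. In both light-exposed libraries Ncf4 (0.778 and 2.65) was below Cybb (1.03 and 3.79), and Cybb was below Rac2 (1.41 and 4.28) and Hvcn1 (1.34 and 4.47 CPM per kb). Ncf1 (2.93 and 7.05) was above Hvcn1 in both, whereas Rac2 and Hvcn1 changed places. With minocycline the order was Cyba (4.7), Ncf1 (0.576), Hvcn1 (0.497), Ncf4 (0.211), Rac2 (0.184) and Cybb (0.0891 CPM per kb), and of these neighbours Ncf1 overlapped with Hvcn1, Ncf4 with Rac2 and Rac2 with Cybb. By its mean, Cybb was thus the lowest member in control and in minocycline retinas, and Ncf4 was the lowest after light.

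The partners of the flavocytochrome were set against each other within each library. The log2 ratio of Cybb to Cyba, per kb, was -6.44 and -4.83 in controls, -3.22 and -3.18 after light, and -5.10 and -5.86 with minocycline. This ratio and the next were taken from log2 CPM with the prior count of 2, which raises low levels most. In the controls Cybb had 0.0123 and 0.0605 CPM per kb and Cyba 2.61 and 2.16. The ratio printed there is nearer to 0 than that of these levels. The light-exposed libraries were alike and above the others, and Cyba was above Cybb in every library. In control 1 this ratio rests on 1 count of Cybb. The log2 ratio of Rac2 to Rac1, per kb, was -6.91 and -6.06 in controls, -3.42 and -2.24 after light, and -5.70 and -6.77 with minocycline. Rac1 remained the more abundant Rac in all libraries, although 51.4% of its exon bases overlap exons of Daglb on the opposite strand.

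Since microglia and macrophages are a source of these transcripts, each member was also expressed relative to the summed CPM of the 13 markers in the same library. The members' log2 CPM carried the prior count of 2 and the marker sum carried none, which raises the values of members with few counts. Relative to the markers, the log2 difference between light-exposed and control retinas was 1.93 for Cybb and 0.83 for Rac2. It was 0.35 for Ncf4, 0.14 for Ncf1, -0.28 for Hvcn1 and -0.50 for Cyba. Cybb was at -8.36 and -7.12 in the controls and at -5.91 and -5.71 in the light-exposed libraries on this log2 scale, without overlap. Cyba was at -4.41 and -4.77 in controls and at -5.17 and -5.01 after light, also without overlap but in the opposite direction. With the mean of the markers' log2 CPM in place of the sum, a measure chosen after seeing the data, Cyba was at 0.13 and -0.21 in controls and at -0.33 and 0.00 after light, so that the groups overlapped. By that measure the difference between light-exposed and control retinas was -0.12 for Cyba, 0.10 for Hvcn1, whose sign thus turned, and 2.31 for Cybb. From light-exposed to minocycline retinas the log2 difference relative to the markers was -1.16 for Cybb, -0.60 for Rac2 and -0.10 for Ncf1, and 0.56 for Ncf4, 0.82 for Hvcn1 and 1.12 for Cyba. For every member these differences were smaller in size than the fitted log2 fold changes, and those of Cybb and Cyba had opposite signs. The fitted changes do not carry the prior count of 2, so for members with few counts the sizes are not on the same measure. The marker sum is weighted to its most abundant genes, and the part of cell number in these values was not tested.

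**Figure D4:**
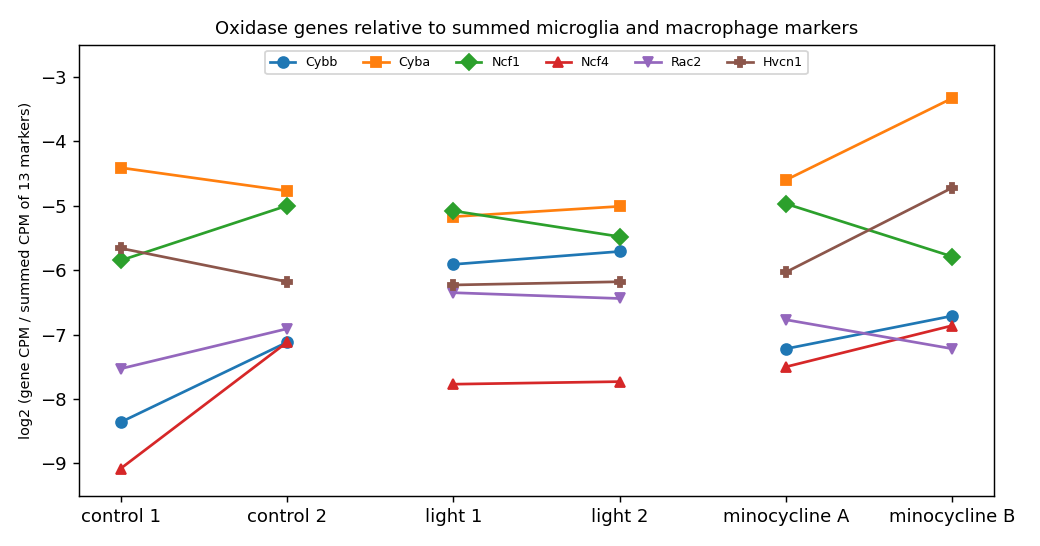
Log2 ratio of each oxidase gene to the summed CPM of 13 microglia and macrophage markers, by library, with lines that join the libraries of a group and carry no order. Cybb is highest in the light-exposed libraries, at -5.91 and -5.71, whereas Cyba is lowest there, at -5.17 and -5.01. With the mean of the markers' log2 CPM in place of the sum, light-exposed and control libraries overlap for Cyba.

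The markers themselves were described in the same way. Of the 13 markers, 4 were called higher after light (Aif1, Cx3cr1, Tmem119 and Fcrls), where 2.89% of all tested genes were called, and 12 were higher at an unadjusted p under 0.05 by edgeR, which held for 16.5% of all genes. The median log2 fold change of the markers was 3.32. DESeq2 without shrinkage called 11 of the 13 markers, and 3.06% of all genes, higher. With minocycline against light 0 of 13 were called by edgeR (0.0339% of all tested genes were called lower) and the median was -3.01. At an unadjusted p under 0.05, 11 were lower (12.1% of all tested genes), and DESeq2 called 10 lower (1.9% of all genes). Markers of other immune cells had low summed levels, though single markers were higher after light. The 9 neutrophil markers found in the table summed to 0.141 to 1.71 CPM, with 3 to 7 of them at 0 in each library, and the 5 monocyte markers summed to 0.703 to 1.75 CPM. The 5 B cell markers summed to 0.481 to 1.61 CPM and the 5 T cell markers to 0.5 to 1.71 CPM. Both light-exposed libraries lay above both controls for 2 of 9 neutrophil and 1 of 5 monocyte markers. The same held for 2 of 5 B cell markers, 2 of 5 T cell markers and 30.1% of all tested genes. Of these markers 0 lay below both controls. Ccr2 of monocytes had 0 and 0 counts in controls, 10 and 12 after light, and 1 and 0 with minocycline. S100a8 of neutrophils had 1 and 0, 7 and 24, and 4 and 2 counts. The cells behind these counts were not tested.

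Further genes of the NADPH oxidase family were described next to the members. Of 15 such genes 14 were in the table, 6 were tested for light against control and 1 was called higher (2.89% of all tested genes), with a median log2 fold change of 0.52. DESeq2 without shrinkage called 2 higher (3.06% of all genes). The called gene was Nrros, listed under its older symbol Lrrc33, which encodes a protein that limits the flavocytochrome in phagocytes. It was counted 13 and 12 times in controls, 62 and 153 times after light and 33 and 19 times with minocycline, and it rose by a log2 fold change of 2.62 with an edgeR adjusted p of 0.0126. Rac1 was counted 793 and 730 times in controls and 1192 and 1936 times after light, with a log2 fold change of 0.59 and an edgeR adjusted p of 0.0453, below the required fold. Rac3 and Rap1a, small GTPases, and Noxo1, an organiser of another oxidase, had log2 fold changes of 0.45, -0.11 and 0.20. In minocycline against light-exposed retinas 0 of 7 tested genes of this list were called by edgeR, with a median of -0.26. At an unadjusted p under 0.05, 1 was higher and 2 were lower (12.1% of all tested genes were lower), and DESeq2 called 2 lower (1.9% of all genes).

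A list of genes whose proteins act upstream of the assembled oxidase was described as well. Of 20 genes on this list all were tested and 8 were called higher, where 2.89% of all tested genes were called, and the median log2 fold change of the list was 1.48. Vav1 and Dock2, exchange factors that load Rac, rose by log2 fold changes of 4.33 and 4.15, with edgeR adjusted p-values of 0.0247 and 0.0438. The kinases Syk and Btk, which act below immune receptors, rose by 4.68 and 4.59 on the log2 scale, with edgeR adjusted p-values of 0.0141 and 0.0154. Plcg2, the phospholipase of the same pathway, rose by 3.25, and Arhgdib, which holds small GTPases in the cytosol of blood cells, by 3.40 on the log2 scale. Pik3cg and Pik3r5, subunits of a lipid kinase, rose by 3.28 and 2.13 on the log2 scale. With minocycline against light 0 of 20 were called by edgeR and 15 were lower at an unadjusted p under 0.05, as were 12.1% of all tested genes. The median of the list was -1.22, and DESeq2 called 8 lower (1.9% of all genes). Minocycline against control gave 0 calls by edgeR among 17 tested genes and 0 by DESeq2, 3 genes higher at an unadjusted p under 0.05 (5.39% of all tested genes), and a median of 0.25.

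Superoxide and peroxide are removed by dismutases, catalase, peroxidases and thioredoxin enzymes. Of 10 such genes, all of them tested, 0 were called after light by edgeR and 0 by DESeq2, 5 were higher at an unadjusted p under 0.05 (16.5% of all tested genes), and the median log2 fold change was 0.39. An adjusted p under 0.05 by edgeR, reached in the higher direction by 7.52% of all tested genes, was found for 2 of them. These were Gpx1, a glutathione peroxidase, with a log2 fold change of 0.97, and Prdx1, a peroxiredoxin, with 0.85. Of 7 other enzymes that make oxidants, 5 were tested and 0 were called by edgeR, with a median of 0.69. At an unadjusted p under 0.05, 2 were higher (16.5% of all tested genes), and DESeq2 called 1 higher (3.06% of all genes). Xdh, which encodes xanthine dehydrogenase and oxidase, had 1.14 and 0.562 CPM in controls, 5.88 and 24.6 CPM after light, and 1.4 and 1.32 CPM with minocycline. Its log2 fold change after light was 4.17 (SE 0.94) with an edgeR adjusted p of 0.0677. The plot of gene lists gives every tested gene.

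**Figure D5:**
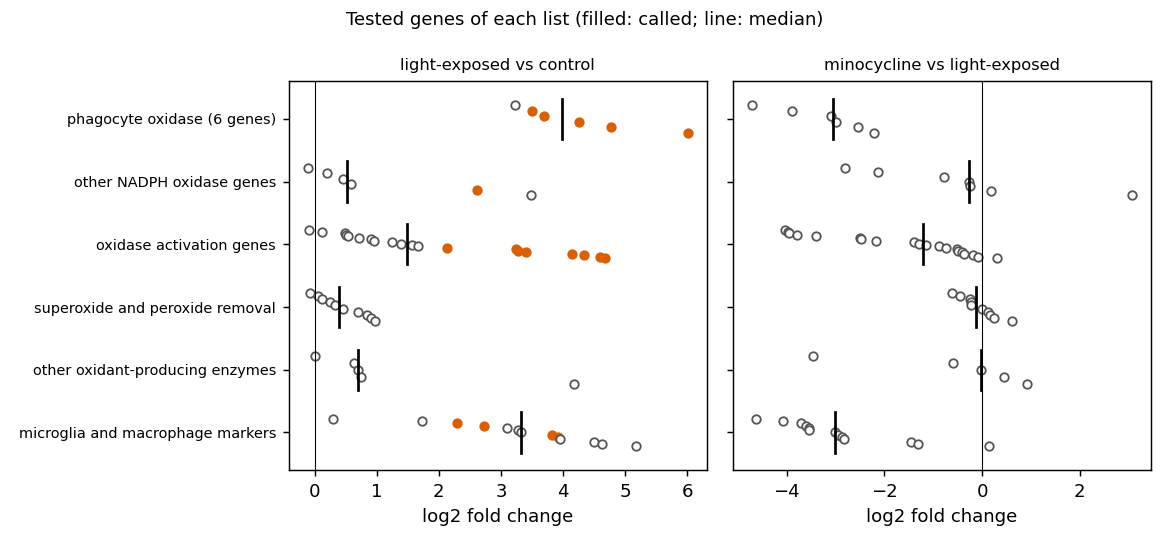
Log2 fold changes of the tested genes of 6 lists after light (left) and with minocycline against light (right), with a line at the median of each list. The 6 oxidase genes have medians of 3.98 and -3.04, next to 3.32 and -3.01 for the microglia and macrophage markers.

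The genes with the most similar profile were sought for each member over the 6 libraries, by the root mean square difference of log2 CPM after the control mean was subtracted. All genes with a mean of at least 50 counts were compared, 12320 in number for most members, and the value is a description of these libraries. Rac2 had the closest neighbours, with C1qa at 0.09, Syk at 0.09 and Laptm5 at 0.11. C1qa encodes a chain of complement C1q and Laptm5 a lysosomal membrane protein of blood cells. Cyba and Hvcn1 were near each other, at 0.15, and Arhgdib was near both at 0.18. Lgals1 was at 0.18 from Cyba and Lgals3 at 0.21 from Hvcn1, and both encode galectins. Ncf1 was nearest to Pld4 (0.27), Sla (0.29) and Ptprc (0.35), the last of which encodes CD45. Cybb was farther from its neighbours, which were Cxcr4 at 0.47, Siglec1 at 0.51 and Lilrb4 at 0.52, all receptors of immune cells. Ncf4 was at 0.56 from Vav1, 0.57 from Plin4 and 0.57 from Fyb, with few counts in the controls. The members fell beside different genes. Ncf1 and Rac2 were beside genes that were lower in minocycline library B than in A, and Cyba and Hvcn1 beside genes at a like or higher level in library B. Since the neighbours were picked over these same 6 libraries, this likeness follows from the choice and is not a separate result.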

How the data were processed

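RNA of mouse retinas gave 6 libraries, 2 for each of 3 groups. The authors prepared stranded mRNA libraries, used STAR with the mm10 (GRCm38) build and counted reads per gene, and the submitters' processing notes also name DESeq2. The deposited values are counts per gene, whole numbers without normalization, although the study calls them normalized. Versions of STAR and DESeq2, the annotation and the use of strand in counting are not given in the sources used here. The headers of the minocycline columns are identical, so their libraries are called A and B, and 0 value columns were left out. Reads were not analysed here, and a gene of the oxidase list and an alternative for the marker sum are not reported here.

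Pairs of groups were compared by edgeR 4.0.16 (limma 3.58.1, R 4.3.3): low-count filter, TMM normalization, robust quasi-likelihood F test, and Benjamini-Hochberg adjustment over all tested genes. Standard errors were derived from the fold change and the F statistic. Called genes changed by 2 or more on the log2 scale at an adjusted p under 0.05. DESeq2 1.42.0 was an alternative. Log2 CPM used a prior count of 2. Total counts ranged from 15205930 to 22856922 per library, which sets a limit of 0.131 to 0.214 CPM for 3 counts. Promoters came from RefSeq tables and gene coordinates from the GRCm38 annotation. Of 111 listed symbols 109 were matched.

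The genes named are the 6 members, genes of the fixed lists and the 3 most similar genes of each member. Tctn1 and Gtf2ird2 were named because their exons overlap those of members, and Daglb because its exons overlap those of Rac1. The members and lists were chosen with earlier results of these data known. The edgeR fit was tested on simulated data. Replicates were called biological by the study, and with 2 libraries a group p-values rest on few degrees of freedom. The alternatives were other scalings, other low-count filters, all libraries in one fit, no robust estimation, DESeq2, the replicate number as a block, no fold threshold, other prior counts, other marker sums, and each library left out in turn.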

Additional observations from a re-analysis of the deposited data

How the results depend on the processing

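For light-exposed against control retinas, 5 of 6 members were called. The count was 2 of 3 tested members with at least 10 counts required in every library, 3 of 6 without a filter, and 2 of 6 with DESeq2 and shrunken fold changes, a setting chosen after seeing the data. With each library left out it ranged from 0 to 6, with 0 when control 1 or control 2 was missing. A lone sample was then assumed to vary like the other group. For minocycline against light-exposed retinas, 0 of 6 were called with edgeR, against 6 with DESeq2 without shrinkage, 1 with DESeq2 and shrunken fold changes, 3 with all 6 libraries in one fit and 1 without a filter. With each library left out it ranged from 0 to 5, the latter without light-exposed library 1. The cause of these shifts was not tested. For minocycline against control 0 members were called under every alternative. The log2 fold change of Ncf1 in that comparison turned from 0.63 to -0.61 without minocycline A, and over all fits that left out a library it ranged from -0.61 to 1.25. For the other members no fit that was made turned the direction. Cybb, Ncf4 and Rac2 had too few counts for this comparison with all 4 libraries and for some of the alternatives, and without minocycline A the level of Rac2, 0.264 CPM, lay below the control mean of 0.318 CPM.

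Scaling to total library size gave all genes a median log2 fold change of 0.24 for light-exposed against control and of -0.17 for minocycline against light-exposed retinas. The members then ranged from 3.47 to 6.25 and from -4.90 to -2.41, and 6 of 6 and 0 of 6 were called, beside 567 of 14349 and 0 of 14750 genes in all. The median log2 CPM of the members in control retinas went from -0.66 to -0.90 with a prior count of 0.5. The members' median level relative to the markers, as a log2 difference between light-exposed and control retinas, was 0.61. It was 0.77 without C1qa and 0.99 with the mean of the markers' log2 CPM, which was chosen after seeing the data. Between minocycline and light-exposed retinas it was -0.32, and -0.44 and -0.68 under the same alternatives.

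The count of genes called over the whole table also moved. For light-exposed against control retinas it was 419, with 73 by DESeq2 with shrunken fold changes, 145 with at least 10 counts, 3 without control 1, 17 without control 2, 746 without light-exposed library 1 and 247 without library 2. For minocycline against light-exposed retinas it was 7 of 14750, with 281 of 14713 in one fit of all 6 libraries, 281 of 18453 without a filter and 405 by DESeq2 without shrinkage, and it ranged from 0 to 433, and for minocycline against control it was 19 and ranged from 0 to 278.

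Control and light-exposed libraries carry replicate numbers. Deviations of libraries with the same number had a correlation of 0.00591 over 12321 genes, so the numbers gave no sign of pairing. With the replicate number as a block 6 of 6 members were called for light-exposed against control retinas, as were 478 of 14349 genes in all. No paired analysis was possible because the minocycline columns carry the same replicate number in identical headers, for both comparisons with that group. Groups of 2 libraries allow no test for outlying samples.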

Other observations

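Nox4, which encodes an oxidase that is active without cytosolic subunits, had its highest counts in the minocycline libraries. It was counted 2 and 1 times in controls, 2 and 4 times after light, and 19 and 35 times with minocycline. Both minocycline libraries lay above all others, but the log2 fold change of minocycline against light-exposed retinas of 3.06 (SE 0.67) had an adjusted p of 0.0804, and that against control of 3.60 (SE 0.75) had an adjusted p of 0.144, both by edgeR's quasi-likelihood test. The sum of 5 cornea and pigment cell markers was also highest in both minocycline libraries, at 163 and 304 CPM, and 4 of the 5 genes were above all other libraries there, among them the corneal keratin Krt12. The part of these cells in the Nox4 counts was not tested.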
